A study of Mus musculus with 8 samples.

Results

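Aminoacyl-tRNA synthetases are the enzymes that attach each amino acid to its tRNA. The 36 genes described here encode 20 cytosolic synthetase chains and 16 mitochondrial synthetases of the mouse, and they were taken by gene symbol from a fixed list out of 53465 gene IDs counted in the study. A suffix of 2 in the symbol marks the mitochondrial enzyme. The samples were regulatory T cells (Tregs) polarized in culture, 4 control libraries and 4 libraries of cells given 50 µM BMS309403, an inhibitor of fatty acid-binding proteins that was used against FABP5.

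Both groups came from wild-type C57BL/6 mice. CD4+ T cells of spleen and lymph nodes were stimulated on plate-bound anti-CD3 at 5 µg/mL and anti-CD28 at 0.5 µg/mL. TGF-β at 5 ng/mL and IL-2 at 100 U/mL were added, together with antibodies at 10 µg/mL that blocked IL-4, IL-12 and IFN-γ. At 72 h each culture was split, and BMS309403 was present in the treated portion alone. The labels give no vehicle, no length of exposure and no age of the mice, and they do not say whether replicates were separate mice or cultures. The p-values therefore measure the spread between these libraries, which may be technical.

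Each synthetase joins its amino acid to the matching tRNA in an ATP-dependent reaction and so sets the meaning of the codons read at the ribosome. Cytosolic enzymes supply the ribosomes that translate nuclear mRNAs, and a largely separate set, encoded in the nucleus and imported, supplies the mitochondrial ribosomes. Gars and Kars each code for the glycyl and the lysyl enzyme of both compartments, Eprs joins the glutamyl and prolyl activities in a single chain, and Farsa and Farsb encode the subunits of the phenylalanyl enzyme. Several synthetase genes are known targets of ATF4, a transcription factor of the integrated stress response to amino acid shortage, which binds DNA elements called CAREs.

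The 8 libraries held between 32.9 M and 44.6 M counted reads (1 M is 1000000), with a mean of 37.9 ± 5.51 M for control and 40.4 ± 1.66 M for treated libraries (SD, n = 4). All 36 genes passed the filter on low counts, and the lowest count of any of them in any library was 226. Markers of Tregs and T cells were high in every library, with Foxp3 between 901 and 1261 CPM (counts per M counted reads, scaled by the TMM method). The summed CPM of 8 such markers was 5088 to 5668 in control and 6306 to 6662 in treated libraries. Il2ra (mean 2562 and 3412 CPM), Foxp3 (950.0 and 1247), Tnfrsf18, Ctla4 and Ikzf2 had higher means in treated libraries, while Cd3e (263 and 191), Cd3g (206 and 172) and Cd4 (598 and 573) had lower ones. The 5 B cell markers summed to 5.86 to 8.72 and 4.74 to 7.45 CPM. Summed levels were also low for 2 CD8 markers (9.89 to 14.3 and 10.2 to 14.9 CPM), 7 myeloid markers (4.38 to 6.25 and 3.06 to 5.72), 3 NK markers (1.25 to 2.82 and 2.57 to 5.06, Ncr1 at 0) and 4 erythroid markers (0.274 to 0.565 and 0.181 to 0.356, Hba-a2 and Hbb-bs at 0). The part of these marker differences in the results was not tested. In bulk RNA of this kind, a change in the proportion of cells cannot be told apart from a change in RNA per cell.

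Cytosolic synthetase mRNAs were mostly higher in treated cells. Of the 20 genes, 12 were higher and 1 was lower at an adjusted p under 0.05 (edgeR's quasi-likelihood test, adjusted over the 14443 genes tested), against 18.7% of all tested genes higher and 18.1% lower. Their median log2 fold change was 0.24, equal to 1.18-fold, and the median of all tested genes was 0.01. The range ran from -0.28 for Dars to 0.67 for Aars. Aars alone of the 20 was called higher past 1.5-fold, a share like that of all tested genes (788 of 14443). Of the 16 mitochondrial genes, 2 were higher, 1 was lower and 13 were not called, with a median of 0.06 and a range of -0.29 to 0.29. All 4 treated libraries lay above all 4 control libraries for 12 cytosolic and 3 mitochondrial genes, against 17.7% of tested genes, and below them for 2 and 1, against 16.1%.

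**Figure D1:**
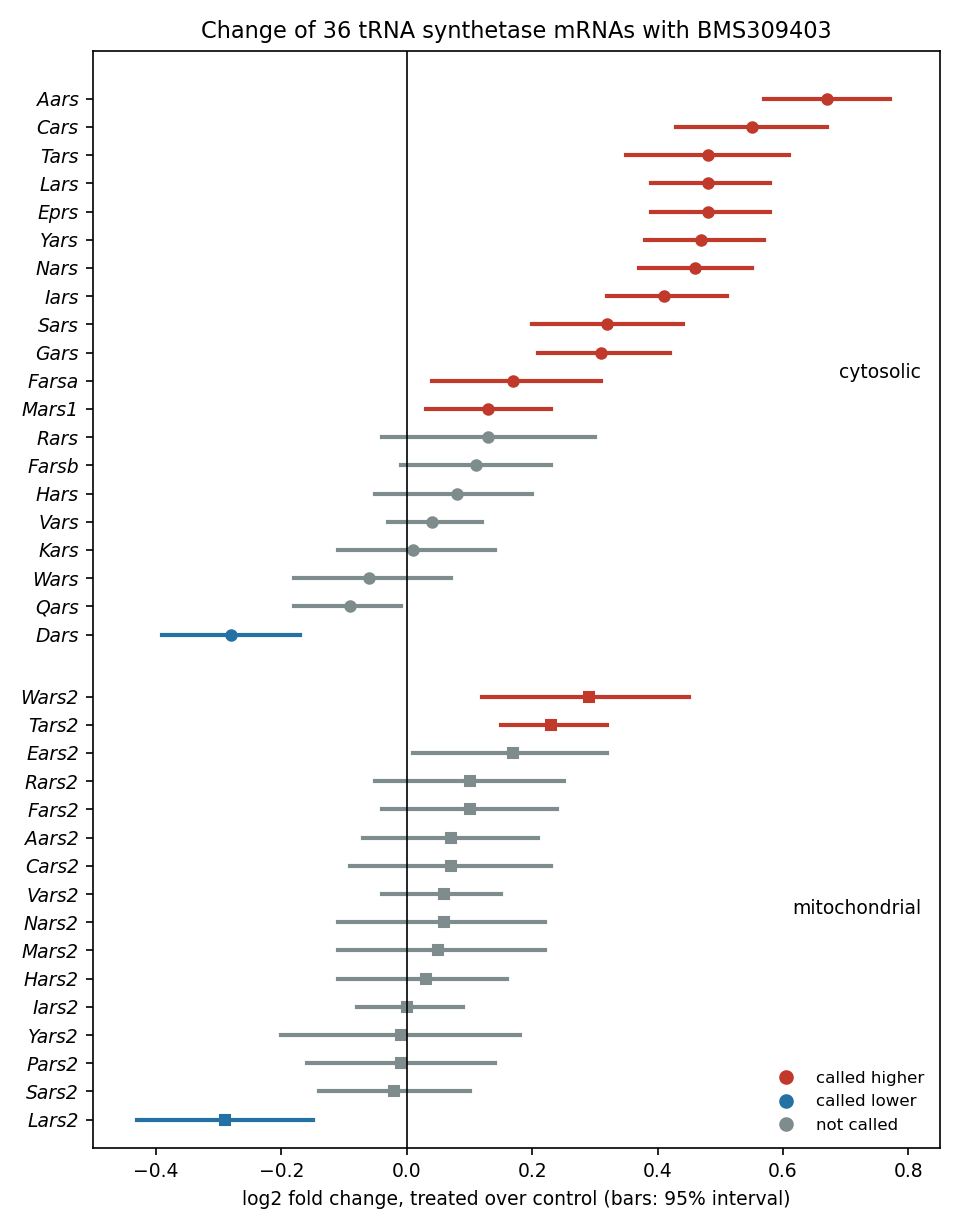
Log2 fold change of treated over control libraries for each of the 36 genes on the horizontal axis, in order of size within the cytosolic and the mitochondrial group, with bars for the 95% interval from edgeR and colour for the call. Aars lies farthest to the right at 0.67, most cytosolic genes lie right of 0, and the mitochondrial genes lie close to 0 apart from Wars2, Tars2 and Lars2.

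Aars encodes the alanyl enzyme (ENSMUSG00000031960, chr8:111033144-111057664 on the plus strand of GRCm38). Control libraries 1 to 4 gave 235, 231, 227 and 230.0 CPM, and treated libraries 1 to 4 gave 340.2, 375, 365 and 391 CPM. The groups lay far apart, and the lowest treated library was well above the highest control. The fold change was 1.59 (log2 0.67, SE 0.05, edgeR adjusted p = 5.55e-07).

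The cysteinyl enzyme, Cars, followed. Its 4 control libraries held 105, 106, 112 and 108 CPM and its treated libraries 143, 161, 156 and 173 CPM, again with no overlap. It rose 1.47-fold (log2 0.55, SE 0.05, edgeR adjusted p = 1.02e-05).

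Lars, Eprs, Tars, Yars and Nars made up a close group, with log2 fold changes between 0.46 and 0.48 and standard errors of 0.04 to 0.06. Lars, for leucine, had 155, 137, 144 and 141 CPM in control and 196, 204, 199 and 207 CPM in treated libraries. Eprs, for glutamate and proline, had 299, 281, 295 and 295 CPM against 382, 412, 411 and 427 CPM. Both rose 1.40-fold with the groups well apart (edgeR adjusted p = 6.19e-06 and 6.09e-06). Tars, for threonine, had the widest spread among controls of these 5 genes, at 155, 129, 134 and 127 CPM, and its treated libraries gave 192, 189, 184 and 195 CPM. It also rose 1.40-fold (edgeR adjusted p = 7.38e-05), and control library 1 was its highest control.

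Yars, for tyrosine, gave 104, 100.4, 99.6 and 97.2 CPM in control and 132, 140.0, 139 and 147 CPM in treated cells. Nars, for asparagine, gave 294, 277, 297 and 289 CPM and then 383, 398, 411 and 402 CPM. Neither gene showed overlap between the groups, and the folds were 1.39 for Yars and 1.38 for Nars (edgeR adjusted p = 5.05e-06 and 4.33e-06). Iars, the isoleucyl enzyme, went from 233, 209, 225 and 224 CPM to 285, 299.9, 296 and 305 CPM, which was 1.33-fold higher (edgeR adjusted p = 1.85e-05).

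Gars, whose transcripts code for the glycyl enzyme of both compartments, was 1.24-fold higher. Its control libraries held 327, 297, 319 and 295 CPM and its treated libraries 383, 369.7, 400.2 and 386 CPM, without overlap (edgeR adjusted p = 2.67e-04). Sars, for serine, was 1.25-fold higher, with a mean of 289 ± 14.5 CPM for control and 362 ± 24.3 CPM for treated libraries (SD, n = 4). The other 2 genes called higher moved little. Mars1, for methionine, changed by 0.13 on the log2 scale (edgeR adjusted p = 0.0406) and Farsa, the catalytic phenylalanyl subunit, by 0.17 (adjusted p = 0.0425), and the Farsa groups overlapped because control library 1 lay above the 3 lowest treated libraries. The Mars1 call was lost without control replicate 2 or 4 or treated replicate 2, 3 or 4 (adjusted p of 0.0608 to 0.133), and the Farsa call without any library other than control replicate 1 (0.0622 to 0.128).

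**Figure D2:**
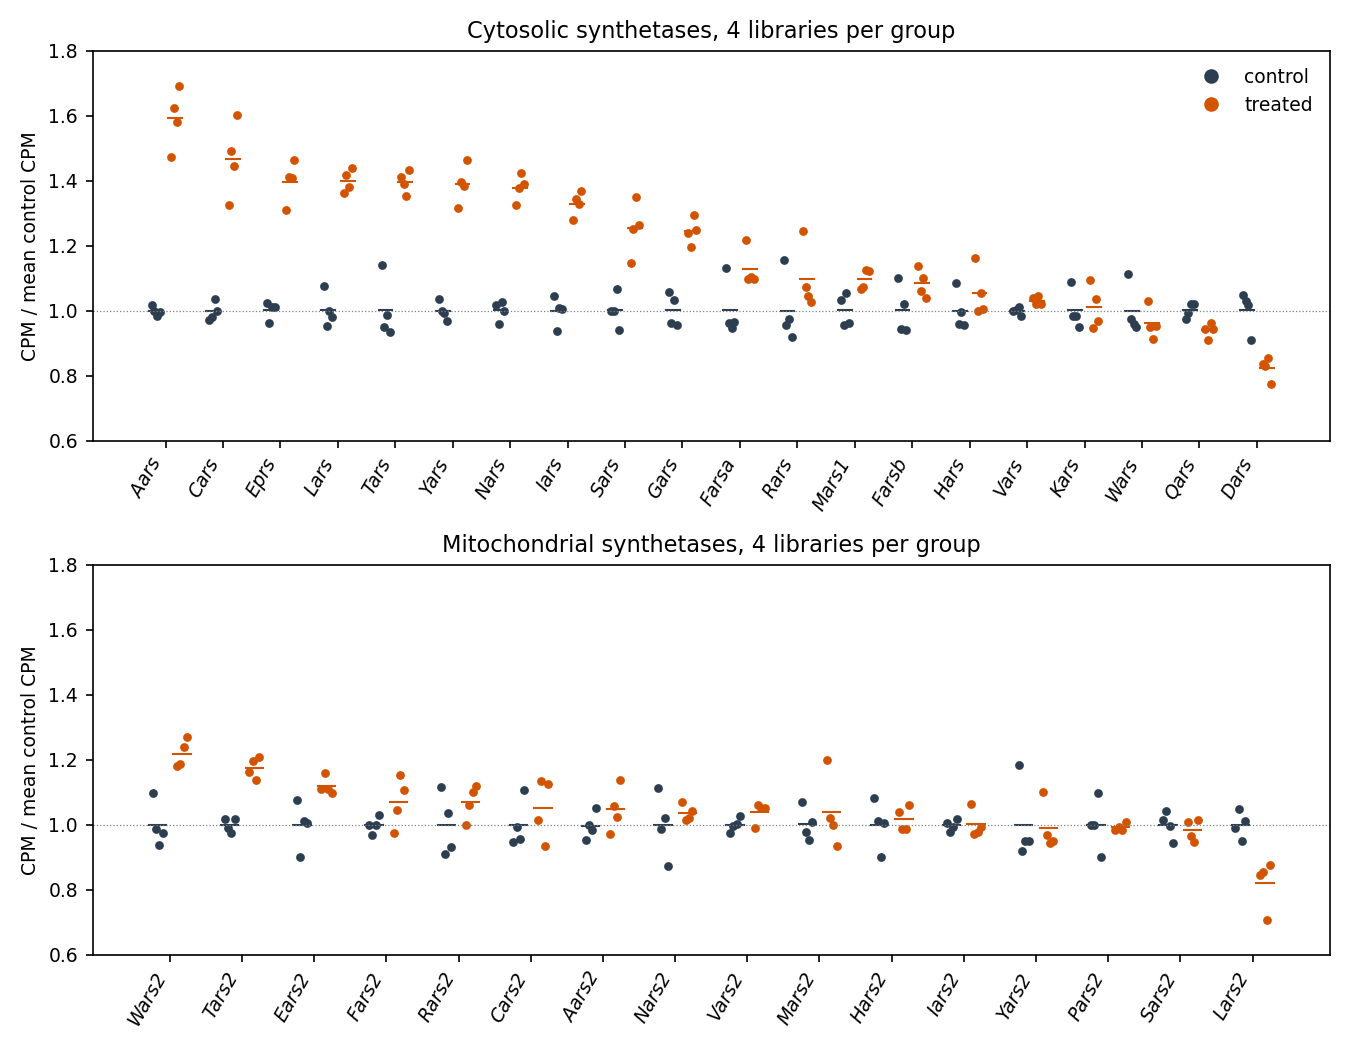
CPM of each gene in each of the 8 libraries divided by the gene's mean control CPM, on a linear vertical axis that does not start at 0, for the cytosolic genes in the upper and the mitochondrial genes in the lower panel. Each point is 1 library and each short line the mean of a group, and for Aars, Cars, Lars, Eprs, Tars, Yars, Nars and Iars the 4 treated points stand clear of the 4 control points.

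Kars, the other gene that serves both compartments, was not called. Control libraries of Kars held 244, 220.3, 220.3 and 213 CPM and treated libraries 245, 212, 232 and 217 CPM. These ranges were nearly the same, with library 1 highest in each group, and the log2 fold change was 0.01 (95% interval -0.11 to 0.14, edgeR adjusted p = 0.880).

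Wars, the tryptophanyl enzyme and known as an interferon-inducible synthetase, was not called. Control libraries gave 218, 191, 188 and 186 CPM and treated libraries 202, 186, 179 and 187 CPM. The groups overlapped, and the log2 fold change was -0.06 (95% interval -0.18 to 0.07, edgeR adjusted p = 0.463). In the same libraries Eif2ak2, which encodes the interferon-induced kinase PKR, was 2.52-fold higher (edgeR adjusted p = 1.90e-08). All cultures held the antibody that blocked IFN-γ, other interferon-induced genes are not shown here, and a part of interferon in either value was not tested.

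Dars, the aspartyl enzyme (chr1:128363707-128417368, minus strand), was the single cytosolic gene called lower. Its control libraries held 172, 169, 167 and 149 CPM and its treated libraries 137, 136, 140.1 and 127 CPM. All treated values lay below all control values, a 1.21-fold lower level (log2 -0.28, SE 0.05, edgeR adjusted p = 0.00127). Qars, for glutamine, was also lower in every treated library, at 220.1 to 233 CPM against 236 to 247 CPM, but its log2 difference of -0.09 missed the threshold (edgeR adjusted p = 0.0717). With DESeq2 (0.0291), with the replicate number as a block (0.0147) or without control replicate 1 (0.0476), Qars passed.

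Vars, for valine, had the most cytosolic reads, and its groups did not overlap (471 to 485 and 488 to 501 CPM), yet the log2 difference was 0.04 (edgeR adjusted p = 0.357). Rars, for arginine, differed by 0.13, Farsb, the second phenylalanyl subunit, by 0.11 and Hars, for histidine, by 0.08 (edgeR adjusted p = 0.198, 0.126 and 0.325), each with overlapping groups. With the replicate block these 3 genes passed (0.00138, 0.00554 and 0.0403), and without control replicate 1 Rars (0.0155) and Farsb (0.0138) did. The block raised the cytosolic counts to 15 higher and 2 lower. It also raised the counts over all 14443 tested genes, from 2694 higher and 2617 lower to 3845 and 3728.

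Sorted by known assembly and fold, a grouping made after the values were seen, the genes that rose were found on both sides. The multisynthetase complex, which holds 8 of the 20 chains with the scaffold proteins, had 4 genes higher (Eprs, Iars, Lars and Mars1), 1 lower (Dars) and 3 not called (Kars, Qars and Rars), with a median log2 fold change of 0.13. Of the 12 chains outside it, 8 were higher and 0 lower by edgeR, with a median of 0.32. None of these 12 was lower at an unadjusted p under 0.05 or by DESeq2 or limma-voom. Among all tested genes, 18.7% were higher and 18.1% lower. Whether the chains inside and outside the complex differ was not tested. The synthetases also fall into classes by the fold of the catalytic domain. Among the 10 class I genes, with Eprs counted there, 6 were higher, and among the 10 class II genes 6 were higher and 1 lower. Of the 3 scaffold genes 0 were called by edgeR, 0 had an unadjusted p under 0.05, and 0 were called by DESeq2 or limma-voom, with log2 differences of 0.02 for Aimp1, -0.17 for Aimp2 and 0.10 for Eef1e1 (edgeR adjusted p = 0.680, 0.180 and 0.542).

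Promoter sequences are shown for the genes that rose and hold the core letters of the CARE element, TGATGNAA, which ATF4 is known to bind. RefSeq promoters of GRCm38.p6, from 250 bases before to 50 after the start site, were matched for 27 of the 36 genes, with no entry for Cars, Hars, Lars, Nars, Rars, Vars, Wars, Hars2 and Pars2. The letters were searched on both strands. They were present in 5 of the 9 matched cytosolic genes that rose and in 0 of the 4 other matched cytosolic genes. None of the 14 matched mitochondrial genes held them. Of all 27025 genes with promoters of the same length, 4.51% held a match, and of the 32851 promoters 3.97% did. For each gene the match nearest the start site is shown. The stretches of 30 bases are written with the match in capitals and on the strand that carries it. A position counts from the start site to the first matched base met in the direction of transcription.
Aars, chr8:111033840-111033869, minus strand, position 10: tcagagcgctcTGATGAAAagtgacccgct
Gars, chr6:55037960-55037989, minus strand, position -30: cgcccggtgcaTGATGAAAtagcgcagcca
Iars, chr13:49682126-49682155, minus strand, position 8: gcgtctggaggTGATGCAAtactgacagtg
Tars, chr15:11399655-11399684, plus strand, position -15: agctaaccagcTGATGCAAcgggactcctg
Yars, chr4:129189895-129189924, plus strand, position 4: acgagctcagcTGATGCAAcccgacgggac

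The matches shown for Aars, Gars, Iars and Tars ran against the direction of the gene and the match in Yars ran with it. The match is a description of these letters and shows neither binding nor a cause. Atf4 mRNA was higher, with a control mean of 323 ± 22.7 CPM and a treated mean of 461 ± 20.8 CPM (SD, n = 4), or 1.43-fold (edgeR adjusted p = 2.38e-05). A part of ATF4 in the synthetase changes was not tested.

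Among the mitochondrial synthetases the largest change up was that of Wars2, for tryptophan, which also had the lowest counts. Control libraries held 7.87, 7.06, 6.72 and 6.99 CPM and treated libraries 8.45, 8.51, 8.87 and 9.09 CPM. The groups lay apart by a small margin, with a 1.22-fold rise (log2 0.29, SE 0.08, edgeR adjusted p = 0.0120). Tars2, for threonine, had 84.2, 82.0, 80.6 and 84.4 CPM in control and 96.2, 99.0, 94.3 and 100.0 CPM in treated libraries. Its groups were also apart, and it rose 1.18-fold (log2 0.23, SE 0.04, edgeR adjusted p = 5.29e-04).

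Lars2, for leucine (chr9:123366927-123462666, plus strand), was the mitochondrial gene with the most reads and the only one called lower. Its control libraries gave 521, 552, 499.9 and 533 CPM and its treated libraries 444, 449, 372 and 460.5 CPM. No treated library reached the lowest control, and treated library 3 was the lowest. The level was 1.22-fold lower (log2 -0.29, SE 0.06, edgeR adjusted p = 0.00443).

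Ears2, for glutamate, had groups that did not overlap but was not called. Control libraries gave 10.4, 8.70, 9.76 and 9.71 CPM and treated libraries 10.7, 11.2, 10.7 and 10.6 CPM, a log2 difference of 0.17 (edgeR adjusted p = 0.0935). It passed with the replicate block (0.0455) and without control replicate 1 (0.0402). Rars2, for arginine, overlapped, at 32.4, 26.4, 30.1 and 27.0 CPM against 29.0, 30.8, 31.9 and 32.5 CPM, with a log2 difference of 0.10 (edgeR adjusted p = 0.278). The other 11 mitochondrial genes all had overlapping groups and log2 differences between -0.02 for Sars2 and 0.10 for Fars2. The 95% interval for Iars2, which had many reads, was -0.08 to 0.09.

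Whether the enzymes of the same amino acid changed unequally was tested on the ratio of their counts within each library, in which library size cancels. Over the 16 pairs of a cytosolic and a mitochondrial gene, the log2 ratio was higher in treated cells in 14 and lower in 2, and the median difference was 0.33. The difference passed an unpaired two-sided exact permutation test over 70 arrangements for 11 pairs of genes. Each was at the smallest p this unpaired test can give (0.0286, or 0.0416 with Benjamini-Hochberg adjustment over the 16 pairs). The arrangements ignore replicate numbers, so these p-values do not hold if libraries of the same number share a culture. The ratio rose in 10 of these 11 pairs of genes and fell in 1. None of the 11 calls held with the replicate number as a block, where the smallest p is 0.125 (adjusted p = 0.167), or when any single library was left out (0.0508 to 0.0831), although all 11 directions were kept. The pairs of Eprs with Ears2 and with Pars2 share Eprs.

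The leucine pair moved most, with the cytosolic gene up and the mitochondrial gene down. Lars held 0.297, 0.248, 0.288 and 0.266 counts per Lars2 count in control and 0.441, 0.454, 0.534 and 0.449 in treated libraries. The groups did not overlap, and the ratio was 1.71-fold higher (log2 difference 0.77). The alanine pair came next. Aars counted 14.2, 13.3, 13.4 and 12.6 times as many reads as Aars2 in control and 20.2, 20.5, 20.6 and 19.8 times as many in treated libraries, with a log2 difference of 0.60. Aars2 itself differed by 0.07 (edgeR adjusted p = 0.412).

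The log2 ratio also rose for Eprs to Pars2 (0.49), Yars to Yars2 (0.48), Cars to Cars2 (0.48), Iars to Iars2 (0.41), Nars to Nars2 (0.41), Sars to Sars2 (0.34), Eprs to Ears2 (0.32) and Tars to Tars2 (0.25). In the threonine pair both genes were called higher. The tryptophan pair went the other way. Wars to Wars2 gave 27.7, 27.1, 28.0 and 26.6 in control and 23.9, 21.8, 20.2 and 20.6 in treated libraries, a log2 difference of -0.34, with Wars2 called higher and Wars not called.

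The 5 other ratios overlapped between the groups. The log2 differences were 0.08 for Farsa to Fars2 (exact permutation p = 0.486), 0.08 for Mars1 to Mars2 (0.486), 0.05 for Hars to Hars2 (0.457), 0.03 for Rars to Rars2 (0.857) and -0.01 for Vars to Vars2 (0.743). The pairs have unequal exon lengths, so a ratio compares libraries and not the levels of its genes.

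**Figure D3:**
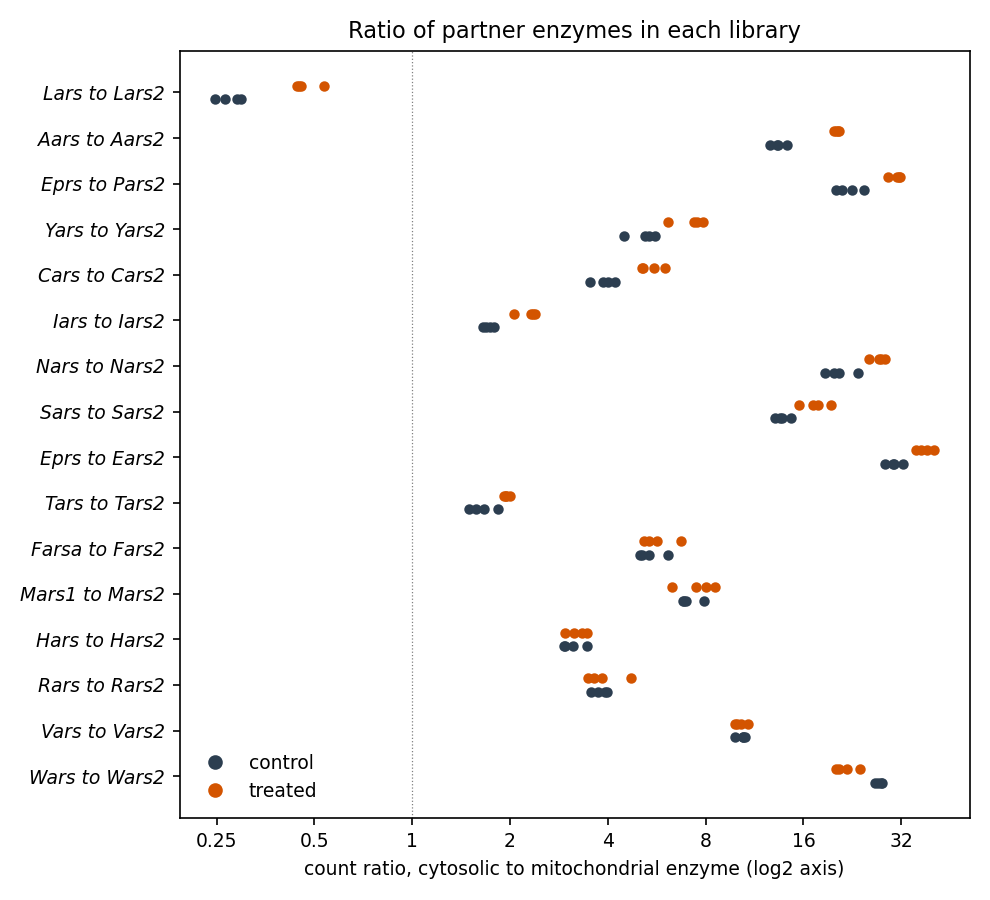
Ratio of the counts of the cytosolic to the mitochondrial gene for each of the 16 pairs, on a log2 axis, with 1 point per library and colour for the group. Treated points lie right of the control points in 10 pairs and left of them for Wars to Wars2, and the leucine pair lies at 0.248 to 0.534, below a ratio of 1.

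Levels between genes were compared per length, as CPM per kilobase of the union of annotated exons. Gars had the highest control level, 99.2 ± 5.09, followed by Vars at 85.3 ± 0.985, Nars at 66.4 ± 2.03, Wars at 56.9 ± 4.31 and Sars at 56.3 ± 2.83 (SD, n = 4). Wars and Sars did not differ beyond their spread. Treated Gars reached 123 ± 4.01 and Nars 91.5 ± 2.69, and Nars passed Vars, which stood at 88.0 ± 1.19. The cytosolic genes ran down to 16.1 ± 0.435 for Eprs, with a median of 38.0.

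Lars2 stood apart from the other mitochondrial genes at 47.5 ± 1.98 CPM per kilobase in control and 38.9 ± 3.62 in treated cells (SD, n = 4), and ranked 8 of the 36. The other 15 mitochondrial genes lay between 1.20 for Wars2 and 14.6 for Iars2, below every cytosolic gene, with a median of 4.30. The order depended on the length used. With the longest annotated transcript in place of the union of exons, Lars2 had the highest control level of all 36 genes at 135 and Gars was next at 130.0, while the other 15 mitochondrial genes again lay below all cytosolic genes.

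**Figure D4:**
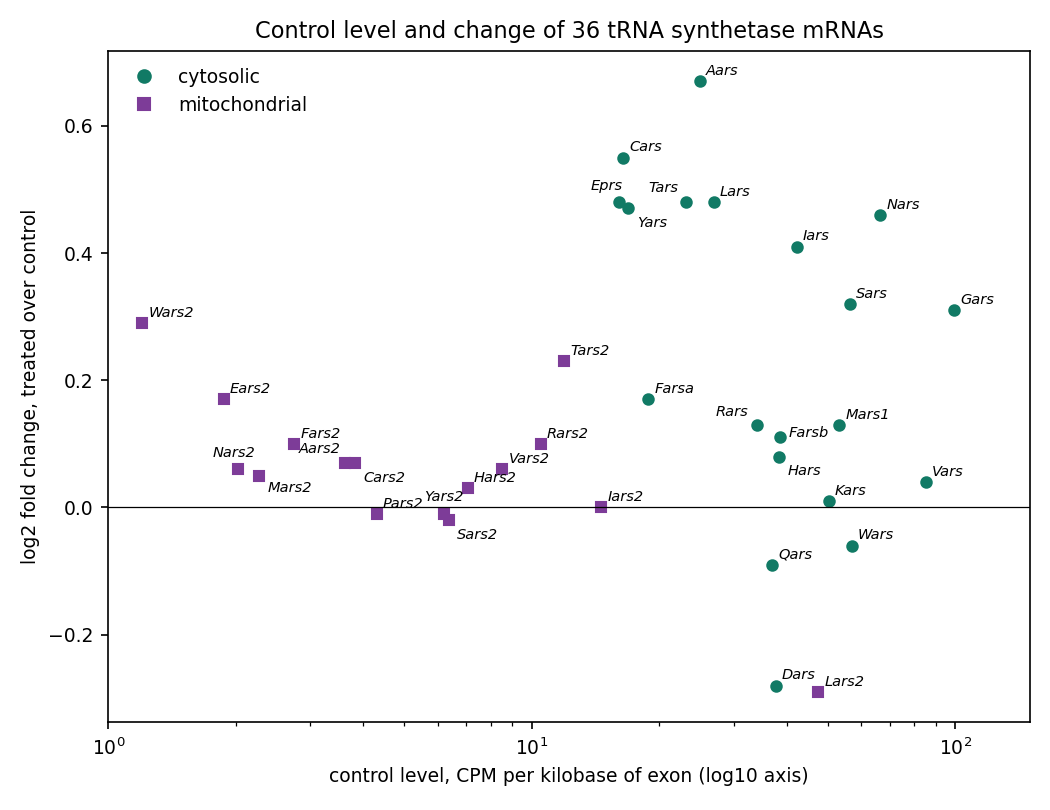
Mean control level in CPM per kilobase of exon on a log10 horizontal axis against the log2 fold change on the vertical axis, with circles for the 20 cytosolic and squares for the 16 mitochondrial genes. Lars2 is the one square among the circles at 47.5 and lies below 0 at -0.29, and Gars lies farthest right at 99.2.

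The 20 cytosolic genes together took 0.409%, 0.389%, 0.401% and 0.390% of all counts in control libraries and 0.469%, 0.482%, 0.486% and 0.496% in treated libraries. The treated share was thus higher in every library, by a ratio of 1.22 between the means of 0.397% and 0.483%. The 16 mitochondrial genes took 0.101% ± 0.00253 of control and 0.0953% ± 0.00545 of treated counts (SD, n = 4), a ratio of 0.95. Lars2 alone took 0.0523% of the control counts, and the 15 remaining genes went from 0.0486% to 0.0519%, a ratio of 1.07 in the opposite direction.

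Genes that act beside the synthetases were followed in lists, which were chosen with earlier results of these data known. In tRNA transcription and maturation, 8 of 18 genes were higher and 2 lower, against 18.7% and 18.1% of all tested genes, with a median log2 fold change of 0.16. Xpot, the nuclear export receptor of tRNA, had a log2 fold change of 0.58, with a control mean of 143 ± 8.74 CPM and a treated mean of 214 ± 5.78 CPM (SD, n = 4; edgeR adjusted p = 2.36e-06). The RNA polymerase III subunits Polr3d and Polr3e rose 1.30-fold and 1.23-fold, and Brf1, a subunit of its initiation factor TFIIIB, rose by 0.27 on the log2 scale. Maf1, the repressor of that polymerase, and Polr3k, a small subunit of it, were 1.10-fold and 1.16-fold lower (edgeR adjusted p = 0.0353 and 0.0185).

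A list of the integrated stress response held its 4 initiating kinases beside transcription factors and target genes. Of its 27 genes, 21 were higher and 2 lower, against the same 18.7% and 18.1%. This list too was chosen with earlier results of these data known, so those shares are no chance level for it. The list had a median log2 fold change of 0.52, and 12 of its genes were called higher past 1.5-fold, against 788 of the 14443 genes tested. Atf5, a transcription factor of this pathway, rose 4.42-fold, from 16.2 ± 0.423 to 71.6 ± 11.6 CPM, and Slc7a11, the cystine transporter, rose 3.98-fold but only to 2.67 CPM. Sesn2, a leucine-binding regulator of mTORC1, and Chac1, which breaks down glutathione, rose 2.69-fold and 2.66-fold. The genes called lower were Ddit4, an inhibitor of mTORC1 (1.63-fold), and Eif2ak3, which encodes the kinase PERK (1.26-fold). Eif2ak4, which encodes GCN2, the kinase that senses uncharged tRNA, had a log2 difference of 0.00 (edgeR adjusted p = 0.954).

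The shares called higher in the other translation lists were near or below the 18.7% of all tested genes, so these counts are no result about the lists. Of 17 mitochondrial translation factors 3 were higher and 0 lower, namely Trmu, a modifier of mitochondrial tRNAs, Mtfmt, which formylates the initiator methionyl-tRNA, and Gatc, a subunit of the amidotransferase that makes glutaminyl-tRNA, with log2 fold changes of 0.23, 0.17 and 0.15. By edgeR's unadjusted p under 0.05, 6 were higher and 1 lower, and DESeq2 and limma-voom called 0 lower. In the list of charging quality control, selenocysteine synthesis and peptidyl-tRNA release, 2 of 11 were higher, Secisbp2 (0.20) and Sepsecs (0.15). In cytosolic elongation 1 of 7 was higher, Eef2k, the kinase of elongation factor 2 (log2 0.31, edgeR adjusted p = 4.71e-04), while Eef1a1, which carries charged tRNA to the ribosome, had a log2 difference of 0.00 at 11707 CPM in control cells. The calls in the lists of mitochondrial factors and of charging were small in size and changed in number with the processing.

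Some values rest on reads that another gene could share, since the sources used here do not give the strand setting of the counting. Of the 36 genes, 13 share exon bases with another gene. Mars1 shares 68 bases with Ddit3 on the opposite strand, and Ddit3 was 2.51-fold higher, with means of 23.1 CPM in control and 58.0 CPM in treated cells, beside 182 and 199 CPM for Mars1. Iars2 shares 2034 bases, 22.9% of its exons, with Rab3gap2, Fars2 shares 501 with Nrn1, and Hars and Hars2 share 195. Aars shares 1326 bases, 14.3% of its exons, on the same strand with Exosc6, which had 0 counts in all libraries. Whether reads from this stretch were counted for Aars, for Exosc6 or for neither is not known here. The 0 therefore does not show that Exosc6 was silent. Iars matches the pseudogene Gm4849 over 1656 bases at 96.0% identity, and Gm4849 averaged 0.196 CPM in control and 0.205 CPM in treated cells. The part of these shared stretches in the values was not tested.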

How the data were processed

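Poly(A)-selected RNA libraries of 4 control and 4 treated Treg cultures were analysed from the whole-number read counts per Ensembl gene that the authors deposited. Per the submitters' processing notes, GRCm38 was the build and deepTools, DESeq2, featureCounts and STAR were used. No versions or roles are given there. Symbols and exon lengths came from GENCODE M21 for 53360 of 53465 IDs, and the other 105 held 0.00631% of counts.

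Counts were tested with edgeR 4.0.16 (R 4.3.3) by glmQLFTest with treatment as the only term after filterByExpr and TMM scaling. Adjusted p-values are Benjamini-Hochberg values over 14443 genes, and genes under 0.05 were called. Fold changes are fitted values, and CPM are TMM-scaled. The SE of a log2 fold change came from the F statistic, and its 95% interval from the t distribution with the test's degrees of freedom (median 11.8). The pair test used log2 ratios of counts plus 0.5. Replicates differed by more than sampling noise (chi-square per degree of freedom 3.08 to 24.2).

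The replicate numbers in the titles recur in both groups. Across genes, the deviations from the group means correlated between libraries of the same number at 0.384, 0.145, 0.106 and 0.264 (numbers in order). All exceeded 0.1, which was taken as a sign that libraries of the same number may be pairs. The labels give the split of each culture but not which libraries share a culture. The calls and p-values in the text come from tests without pairing unless the replicate block is named. If libraries of the same number do share a culture, those tests leave out that pairing. Whether Farsb, Hars, Qars, Rars and Ears2 are called depends on it, since these genes passed with the block. Treated replicate 2 correlated better with control replicate 4 (0.208).

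Some promoter sequence is not reported here. The genes and lists were chosen with earlier results of these data known. Values in every library were planned for the 8 cytosolic and 5 mitochondrial genes with the largest change, for Wars, Kars, Gars and Eprs, and for up to 4 called genes of a related list by fold change. The per-library values of Dars, and the list genes called lower or named beside a member, were added after they were seen. Alternatives were RLE size factors, total counts, no filter, DESeq2 1.42.0, limma-voom (limma 3.58.1), the replicate block, leaving out each library, another pair pseudocount (5) and another gene length.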

Additional observations from a re-analysis of the deposited data

Results flagged for a closer look

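In each group of 4 libraries, the highest and lowest CPM of each gene were compared with the nearest other library by Dixon's ratio at its 95% critical value. Of 72 groups examined, 5 held a library that stood apart, and chance alone gives about 5% of such groups. Every one of them was library 1 of its group. Farsa stood at 96.6 CPM in control replicate 1, against 80.8 to 82.3 CPM in the other controls, and at 104 CPM in treated replicate 1, against 93.6 to 94.2 CPM in the other treated libraries. Wars was highest in control replicate 1 at 218 CPM, with the others at 186 to 191 CPM. Yars2 was highest there too, at 23.2 CPM against 18.0 to 18.6 CPM. Vars2 was lowest in treated replicate 1, at 46.1 CPM against 48.9 to 49.4 CPM.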

How the results depend on the processing

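Of the 36 genes, 29 kept their side of the threshold under all 14 alternatives run, no gene changed direction past the threshold, and the 7 others (Farsa, Mars1, Farsb, Hars, Qars, Rars and Ears2) had small changes. Farsa and Mars1 were also lost with RLE size factors (edgeR adjusted p = 0.0526 and 0.0515), Farsa with DESeq2 (0.0537) and Mars1 without the filter (0.0506). Over single libraries left out, 10 to 14 cytosolic genes were higher and 1 to 2 lower, and 2 to 3 mitochondrial genes were higher and 1 lower. Cytosolic genes called lower were 2 with DESeq2 and 2 with the replicate block. The block changed no other call among the 36 genes than those of Farsb, Hars, Qars, Rars and Ears2. With the replicate block the pair test cannot go below 0.125, so 0 pairs passed (adjusted p = 0.167 for the 11), and without any single library 0 to 0 passed (0.0508 to 0.0831), with the direction of all 11 kept. The mitochondrial share of counts turned to a ratio of 1.07 without Lars2, an alternative chosen after seeing the data. Across all tested genes the block called 3845 higher and 3728 lower, against 2694 and 2617 without it.

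Among the related lists, the replicate block called 1 scaffold gene, 2 charging genes, 2 mitochondrial translation factors and 3 elongation genes lower, and 6 mitochondrial factors higher. The mitochondrial factors called higher were 5 with total counts and 1 with RLE size factors, without the filter or with DESeq2. Charging genes higher were 1 without the filter and 1 with DESeq2, and tRNA transcription genes lower were 1 with total counts and 1 without the filter. Leaving out single libraries gave 0 to 4 mitochondrial factors higher and 0 to 1 lower, 1 to 2 charging genes higher and 0 to 1 lower, 0 to 1 scaffold genes in each direction, 0 to 1 elongation genes lower and 0 to 2 tRNA transcription genes lower. The causes of these differences were not tested. The lowest count of the 36 genes was 226, in Wars2, and the part of counting noise in the genes of few reads was not tested. With 4 libraries a group, the unpaired exact permutation test of a pair of genes is limited to p = 0.0286.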
